A study of Mus musculus with 15 samples.

Results

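The genes described here are the FOXO transcription factors of mouse pre-B cells and a set of their target genes. They were chosen by symbol: 3 factors (Foxo1, Foxo3 and Foxo4) and 6 targets (Cited2, Klf2, Pik3ip1, Irs2, Sesn3 and Ccng2), or 9 of the 55335 gene identifiers in the count files. FOXO proteins are forkhead factors that bind DNA and switch on genes of cell cycle arrest, survival control and lymphocyte development. When phosphatidylinositol 3-kinase (PI3K) is active, the kinase AKT phosphorylates FOXO proteins, 14-3-3 proteins bind them, and they leave the nucleus. In pre-B cells FOXO1 is known to support transcription of the interleukin 7 receptor and of the recombinase genes. The adaptor SLP65 is known to restrain PI3K and AKT below the pre-B cell receptor.

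Knockout means 3 RNA libraries titled MSL2KO-preB, of the genotype MSL2KO with Slp65KO by title and design. Wild type means 3 libraries titled MSL2WT-preB, which carry Slp65KO and an unedited Msl2. Both derive, per the labels, from mouse bone marrow cells lacking SLP65 that were subcloned from a single cell and grown with interleukin 7, untreated. A guide RNA against Msl2, the gene of a ubiquitin ligase of the MSL histone acetylation complex, gave the knockout line. Each genotype is thus 1 line, and the labels do not say that replicates were separate cultures, so the p-values rest on variation among libraries that may be technical repeats. In all 6 libraries the genotype tag contradicts the title. The titles were followed, and every direction depends on them.

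The RNA of the edited gene does not settle which label holds. Msl2 was at 105, 103 and 121 CPM (read counts brought to one library size with TMM factors) in knockout replicates 1, 2 and 3, against 97.1, 99.3 and 92.3 CPM in the wild-type replicates. Its adjusted p was 0.302 in edgeR's quasi-likelihood test. Such counts cannot see a short edit within a transcript that is still made. Blnk, which encodes SLP65, averaged 112 ± 4.1 CPM in knockout and 98.3 ± 19 CPM in wild-type libraries (SD, n = 3 each), so the counts do not check its loss. Library totals ran from 15250975 to 20803227 reads in the knockout and from 14092278 to 17437198 reads in the wild type. The 10 pre-B cell markers (Cd79a, Cd79b, Igll1 and others) summed to 2560 to 2600 CPM in the knockout and to 2540 to 2720 CPM in the wild type. Of the 9 markers tested, the groups overlapped in 6. In the knockout Vpreb1 and Vpreb2 lay below every wild-type library and Bst1 above. Groups did not overlap in 20.9% of all tested genes. Dntt was too low to test. Markers of T and NK cells summed to at most 4.6 CPM in the knockout and 4.68 CPM in the wild type, with Gzma and Nkg7 at 0 reads. Myeloid markers reached at most 0.995 CPM in the knockout and 1.02 CPM in the wild type, with Lyz2, Elane, Ly6g, S100a8 and S100a9 at 0. Erythroid and megakaryocyte markers reached at most 1.78 CPM in the knockout and 1.77 CPM in the wild type, with Pf4 at 0.

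FOXO proteins are known to bind a DNA core written AAACA on one strand, which reads as TGTTT on the opposite strand. This core was sought in the 250 bases before the start listed for each gene in the RefSeq promoter table (GRCm38.p6). The table held 8 of the 9 genes, and Foxo4 was not among them. The Pik3ip1 window, which held 0 cores, runs from 3330481 to 3330730 on chromosome 11. It lies inside the gene span given below (3319241 to 3342971) and not before it, so it does not cover the bases upstream of that span. The core was in 4 of the 8 windows, against 46.4% of the 32851 promoter windows in the table. A longer forkhead motif, spelled GTAAACA with the opposite strand reading TGTTTAC, was in 0 of the 8, against 3.17% of all windows. An insulin response motif, spelled AAAACAA with the opposite strand reading TTGTTTT, was in 2 of the 8, those of Irs2 and Ccng2, against 8.11% of all windows. Both longer motifs contain the core, so the counts overlap. The 4 windows with a core are shown because they include Cited2, the 1 gene of the set that passed the test below, and Foxo1 itself. Capitals mark each core on either strand, and the bases run 5′ to 3′ toward the gene.
Cited2 promoter, chr10:17722978-17723227, plus strand: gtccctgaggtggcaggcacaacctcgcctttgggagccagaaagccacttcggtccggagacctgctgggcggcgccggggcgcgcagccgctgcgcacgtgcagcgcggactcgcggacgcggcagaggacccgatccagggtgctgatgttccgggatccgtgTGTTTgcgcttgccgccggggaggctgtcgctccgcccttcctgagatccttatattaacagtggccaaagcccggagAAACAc
Foxo1 promoter, chr3:52268087-52268336, plus strand: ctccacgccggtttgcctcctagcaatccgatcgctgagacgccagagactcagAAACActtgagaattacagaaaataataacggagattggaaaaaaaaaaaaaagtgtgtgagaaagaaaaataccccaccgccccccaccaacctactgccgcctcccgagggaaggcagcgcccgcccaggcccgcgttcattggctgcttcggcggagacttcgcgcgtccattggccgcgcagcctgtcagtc
Irs2 promoter, chr8:11008930-11009179, minus strand: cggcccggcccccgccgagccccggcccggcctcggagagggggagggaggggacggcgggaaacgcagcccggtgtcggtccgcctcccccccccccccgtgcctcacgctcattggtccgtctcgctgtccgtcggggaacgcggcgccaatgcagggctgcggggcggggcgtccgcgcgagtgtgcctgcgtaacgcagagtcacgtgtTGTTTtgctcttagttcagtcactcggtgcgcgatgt
Ccng2 promoter, chr5:93267323-93267572, plus strand: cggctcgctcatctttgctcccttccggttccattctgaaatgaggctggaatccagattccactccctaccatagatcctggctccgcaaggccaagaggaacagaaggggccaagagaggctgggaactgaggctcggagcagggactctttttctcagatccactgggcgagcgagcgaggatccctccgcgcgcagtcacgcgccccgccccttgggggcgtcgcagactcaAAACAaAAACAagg
A match is a string of letters and not a measured binding site, and no binding data were analysed here. The Cited2 window holds 2 cores, which begin 84 and 6 bases before the start. The Foxo1 window holds 1, which begins 196 bases before it. In the Ccng2 window 2 cores follow each other at 14 and 8 bases before the start, and Irs2 has 1 at 37 bases.

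Between knockout and wild-type libraries 1 of the 9 genes was called as changed in edgeR. Cited2 fell 1.52-fold in the knockout, and edgeR called 0 genes of the set higher (false discovery rate by Benjamini-Hochberg across 13077 tested genes, threshold 0.05). Of all tested genes, 4.59% were called, 1.8% higher and 2.79% lower. At an unadjusted p under 0.05 there were 4 of the 9, Cited2, Foxo1, Foxo4 and Pik3ip1, against 15.4% of all tested genes. The groups did not overlap in 3 of the 9, against 20.9% of all tested genes. Foxo1 lay above the wild type, as did 9.68% of all tested genes, and Foxo4 and Cited2 below it, as did 11.2%. All 9 passed the filter on low counts. The median log2 fold change of the 9 was -0.008, beside 0.004 over all tested genes. These are RNA levels of whole cultures, in which fewer cells with a transcript and less transcript per cell cannot be told apart, and they do not measure the amount or place of FOXO protein.

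**Figure D1:**
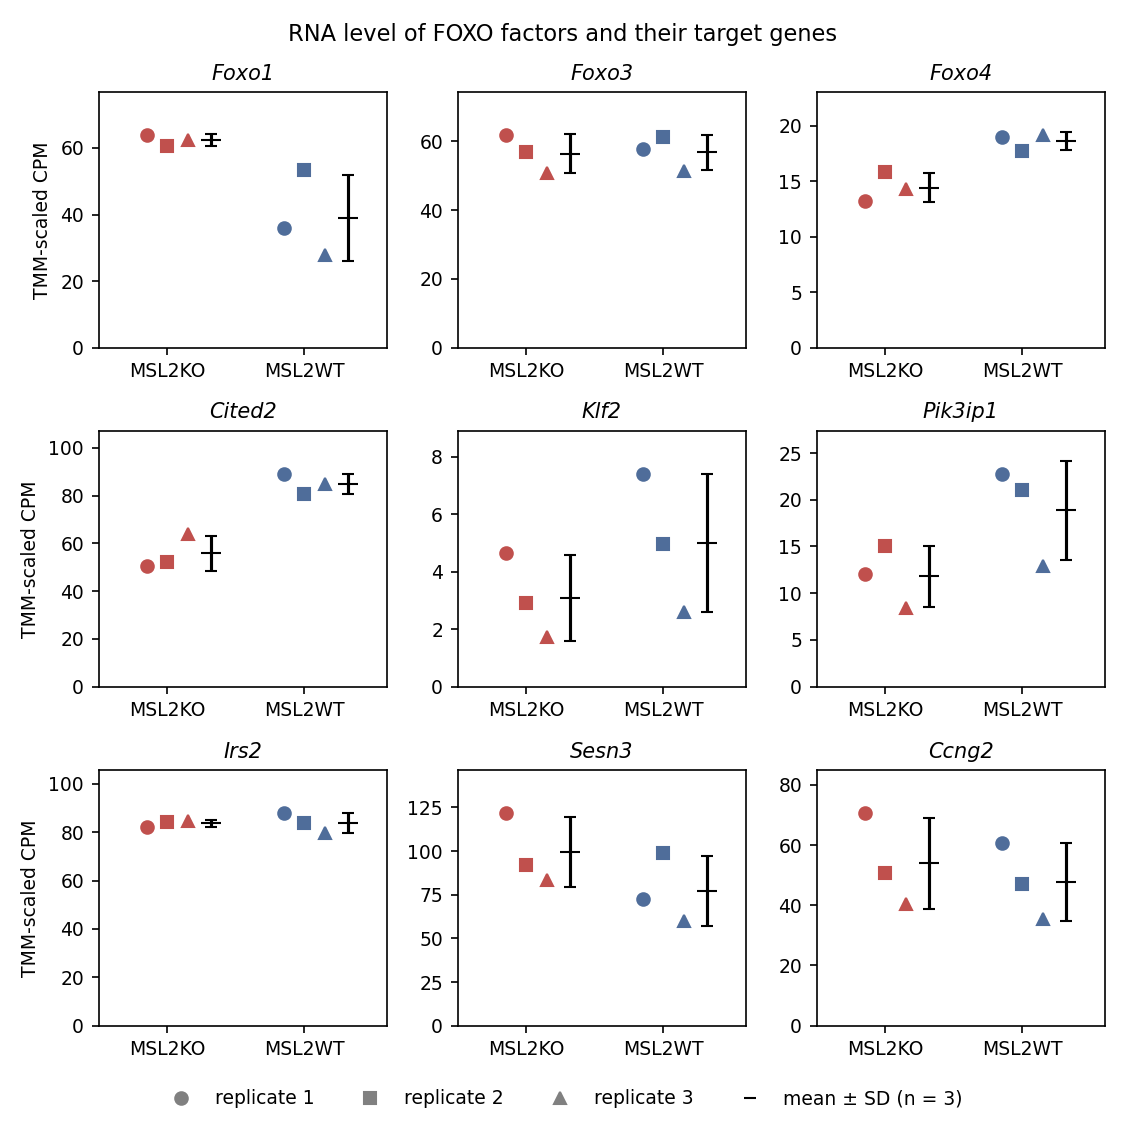
TMM-scaled CPM (vertical axes, from 0) of the 9 genes in each of the 3 MSL2KO (red) and 3 MSL2WT (blue) libraries, with mean and SD in black and the marker shape giving the replicate number. Foxo1 in the knockout sits at 60.7 to 64 CPM, above all wild-type libraries, while Cited2 and Foxo4 in the knockout sit below them.

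Foxo1 (ENSMUSG00000044167.6, chromosome 3, 52268337 to 52350109, mm10) encodes the FOXO factor best known in B cell development. It was at 64, 60.7 and 62.4 CPM in knockout replicates 1, 2 and 3, against 35.8, 53.4 and 27.9 CPM in wild-type replicates 1, 2 and 3. The knockout libraries lay close together and above every wild-type library, of which replicate 2 was the highest. The means were 62.4 ± 1.7 CPM in the knockout and 39 ± 13 CPM in the wild type, a log2 fold change of 0.67 ± 0.18 (SE) with a 95% interval from 0.26 to 1.08. The adjusted p was 0.0741 in edgeR, so Foxo1 did not pass the threshold. It did pass in DESeq2 (adjusted p 0.00397). Without wild-type replicate 2 the log2 fold change was 0.97 and the edgeR adjusted p 0.00257. Without wild-type replicate 3 it was 0.48. The SD was 2.68% of the mean in the knockout and 33.4% in the wild type, where counting error alone at these read numbers gives 3.03% and 4% in those groups. The median SD over all tested genes was 9.13% of the mean in the knockout and 10.2% in the wild type.

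Foxo3 (ENSMUSG00000048756.11, chromosome 10, 42181845 to 42276695), a factor known for quiescence and cell death programmes, gave a different picture. It was at 62, 56.8 and 50.8 CPM in the knockout replicates, against 57.8, 61.4 and 51.4 CPM in the wild-type replicates. The groups overlapped, with replicate 3 the lowest in each. Its log2 fold change was -0.008, with a 95% interval from -0.23 to 0.21 and an adjusted p of 0.987 in edgeR. Its sign turned in some of the fits that left out 1 library. The reads of Foxo1 over those of Foxo3, a ratio that is free of library scaling, were 1.03, 1.07 and 1.23 in the knockout and 0.62, 0.869 and 0.543 in the wild type. All 3 knockout ratios lay above the wild-type ratios.

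Foxo4 (ENSMUSG00000042903.8, chromosome X, 101254261 to 101260873), the third factor, had fewer reads. It was at 13.2, 15.8 and 14.3 CPM in the knockout replicates, against 19, 17.7 and 19.2 CPM in the wild-type replicates. Every knockout library lay below every wild-type library. The log2 fold change was -0.36 ± 0.11 with a 95% interval from -0.61 to -0.12, but the adjusted p was 0.0996 in edgeR. With any 1 library left out the log2 fold change ran from -0.43 to -0.30 and the adjusted p from 0.132 to 0.256. Foxo6, the remaining family member, was not tested, as it had reads in knockout replicate 2 only, at 0.0469 CPM. The 3 factors thus had log2 fold changes above, near and below 0, none of them past the threshold. Their summed level was 139, 133 and 128 CPM in the knockout and 113, 132 and 98.4 CPM in the wild type, and these groups overlapped because wild-type replicate 2 exceeded knockout replicate 3. Of that sum Foxo1 made up 45.5% to 48.9% in the knockout and 28.3% to 40.3% in the wild type. No transcript lengths were used, so the share compares libraries and not the 3 genes with each other.

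**Figure D2:**
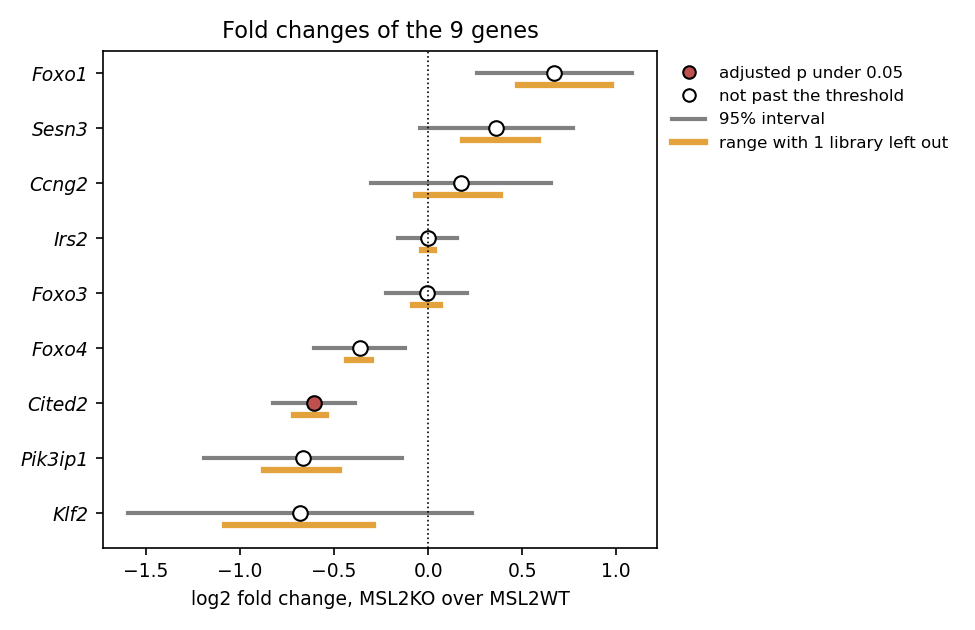
Log2 fold change of each gene, MSL2KO over MSL2WT (points), with its 95% interval (grey) and the range over the 6 fits that leave out 1 library each (orange). Only Cited2 is filled, at -0.61. Foxo1 (0.67) is at the top and Klf2 (-0.68) at the bottom, with the widest interval.

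Among the targets, Cited2 (ENSMUSG00000039910.10, chromosome 10, 17723228 to 17725674) encodes a coregulator that binds the acetyltransferases CBP and p300 and limits hypoxia-inducible transcription. It was at 50.7, 52.4 and 64.1 CPM in knockout replicates 1, 2 and 3, against 89.2, 80.7 and 84.8 CPM in wild-type replicates 1, 2 and 3. The highest knockout library, replicate 3, stayed below the lowest wild-type library. The means were 55.8 ± 7.3 CPM in the knockout and 84.9 ± 4.3 CPM in the wild type (SD, n = 3 each). Its log2 fold change was -0.61 ± 0.10 (SE), and the adjusted p was 0.00548 in edgeR, the 223rd smallest p of 13077. With any 1 library left out the value ran from -0.72 to -0.55 and the adjusted p from 0.00185 to 0.0265. With both libraries numbered 2 left out, the log2 fold change was -0.60 and the edgeR adjusted p 0.0512.

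Pik3ip1 (ENSMUSG00000034614.14, chromosome 11, 3319241 to 3342971) encodes a membrane protein that inhibits PI3K. It was at 12.1, 15 and 8.38 CPM in the knockout replicates, against 22.8, 21 and 12.9 CPM in the wild-type replicates. Knockout replicate 2 lay above wild-type replicate 3, so the groups overlapped. A log2 fold change of -0.67 ± 0.24 resulted, with a 95% interval from -1.19 to -0.14 and an adjusted p of 0.182 in edgeR. This fold change was close in size to that of Cited2, but the SD was 28% of the mean in the knockout and 27.9% in the wild type. With 1 library left out the log2 fold change ran from -0.87 (adjusted p 0.0471, without wild-type replicate 3) to -0.47 (0.395, without knockout replicate 3), and only the first of these 6 fits passed the threshold.

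Klf2 (ENSMUSG00000055148.7, chromosome 8, 72319062 to 72321654), a Krüppel-like factor of lymphocyte quiescence and homing, was the least abundant in reads. Its read counts were 75, 62 and 26 in the knockout replicates and 105, 88 and 39 in the wild-type replicates. These correspond to 4.66, 2.91 and 1.72 CPM in the knockout, against 7.42, 4.96 and 2.59 CPM in the wild type. The libraries of each group differed among themselves by more than the groups did, 2.72-fold in the knockout and 2.87-fold in the wild type from lowest to highest. This gave a log2 fold change of -0.68 ± 0.41, with a 95% interval from -1.59 to 0.23 (adjusted p 0.514 in edgeR). With 1 library left out it ran from -1.08 (adjusted p 0.275, without knockout replicate 1) to -0.29 (0.872, without wild-type replicate 1). It was -0.40 (0.8) without knockout replicate 3.

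Sesn3 (ENSMUSG00000032009.8, chromosome 9, 14276301 to 14326134) encodes a sestrin, a stress protein that restrains the growth kinase complex mTORC1. It was at 122, 92.1 and 83.4 CPM in the knockout replicates, against 72.4, 99 and 59.8 CPM in the wild-type replicates. The groups overlapped through wild-type replicate 2, the same library in which Foxo1 was highest among the wild type. Its log2 fold change was 0.36 ± 0.18, with a 95% interval from -0.04 to 0.77 and an adjusted p of 0.396 in edgeR. With 1 library left out it ran from 0.19 (adjusted p 0.725, without knockout replicate 1) to 0.59 (0.106, without wild-type replicate 2), and it was 0.21 (0.625) without wild-type replicate 3.

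Irs2 (ENSMUSG00000038894.7, chromosome 8, 10984681 to 11008929) encodes an adaptor that carries insulin and cytokine receptor signals to PI3K. It was at 82.1, 84.2 and 84.7 CPM in the knockout, against 88.1, 83.6 and 79.8 CPM in the wild type. The wild-type libraries spanned the knockout range. The log2 fold change was -0.003, with the narrowest 95% interval of the 9 genes, from -0.16 to 0.15 (adjusted p 0.995 in edgeR).

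Ccng2 (ENSMUSG00000029385.14, chromosome 5, 93267573 to 93276231) encodes cyclin G2, an unconventional cyclin linked to cell cycle arrest. It was at 70.8, 50.6 and 40.4 CPM in the knockout, against 60.8, 47 and 35.6 CPM in the wild type. Libraries of the same number had similar levels, and the groups overlapped. For Ccng2 the log2 fold change was 0.17 ± 0.21, with a 95% interval from -0.30 to 0.65 (adjusted p 0.808 in edgeR), and -0.07 without knockout replicate 1.

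In 5 of the 9 genes (Foxo3, Klf2, Pik3ip1, Sesn3 and Ccng2) the library numbered 3 was the lowest of both groups. The same held for 20% of all tested genes. For Klf2, Pik3ip1, Sesn3 and Ccng2 the SD within a group was 20.6% to 47.9% of the mean in the knockout and 26% to 48.4% in the wild type. Counting error alone gives 2.4% to 13.6% for these genes in the knockout and 2.85% to 11.4% in the wild type.

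**Figure D3:**
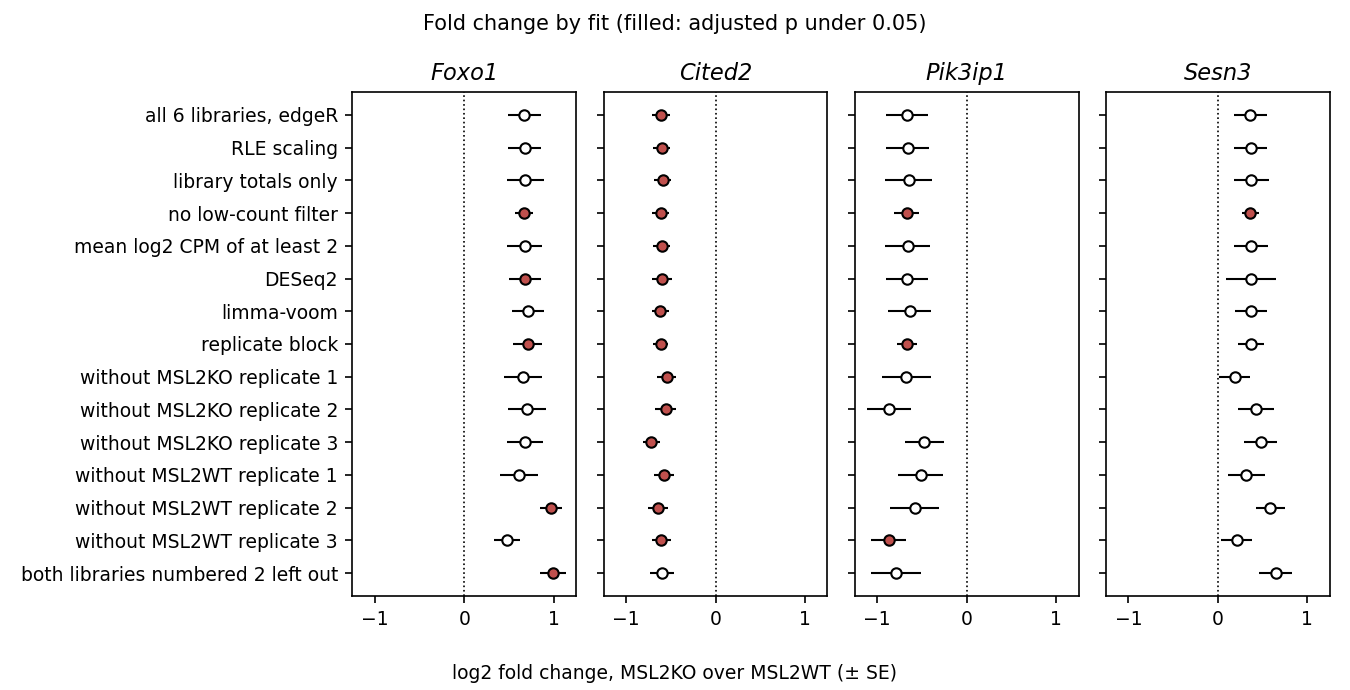
Log2 fold change (± SE, horizontal axes) of Foxo1, Cited2, Pik3ip1 and Sesn3, MSL2KO over MSL2WT, in the edgeR fit of all 6 libraries and in 14 other fits, filled where the adjusted p was under 0.05. Directions are the same in every fit shown. Cited2 is open only with both libraries numbered 2 left out, and Foxo1 shifts right, to 0.97 and 0.99, when wild-type replicate 2 is absent.

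The kinase arm that holds FOXO proteins out of the nucleus was examined through 26 tested genes of 28 listed. Of these, 3 were called higher and 1 lower in edgeR. That is 15.4% called, beside 4.59% of all tested genes (1.8% higher and 2.79% lower). The median log2 fold change of the list was 0.10, beside 0.004 over all tested genes. Inpp4b, a lipid phosphatase that acts on products of PI3K, was at 4.1, 5.63 and 3.7 CPM in the knockout replicates, against 1.34, 1.24 and 1.19 CPM in the wild-type replicates. All knockout libraries lay well above the wild-type libraries, and the log2 fold change was 1.83 ± 0.26 (adjusted p 0.0032 in edgeR). Inppl1, which encodes the lipid phosphatase SHIP2, was at 202, 199 and 266 CPM in the knockout, against 135, 143 and 153 CPM in the wild type. Its log2 fold change was 0.63 ± 0.11 (adjusted p 0.00976 in edgeR).

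Sgk3, a kinase related to AKT, fell. It was at 64.4, 68.9 and 63.8 CPM in the knockout, against 98.8, 99.6 and 100 CPM in the wild type. The groups were far apart compared with their spread, with a log2 fold change of -0.60 ± 0.07 (adjusted p 0.000878 in edgeR). Akt1 and Akt2 had log2 fold changes of 0.22 and 0.23 with adjusted p of 0.271 and 0.163 in edgeR. Akt1 and Akt2, which encode AKT kinases, were named for their role after their values were seen.

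Among proteins that act on FOXO factors (14-3-3 proteins, deacetylases, acetyltransferases and others), 19 of 20 listed genes were tested, and 1 was called higher. That is 5.26% called, near the 4.59% of all tested genes. This was Stk3, which encodes the kinase MST2. It was at 50.2, 43 and 50 CPM in the knockout, against 28.8, 32.3 and 33.6 CPM in the wild type. No knockout library reached down to the wild-type range, and the log2 fold change was 0.59 ± 0.10 (adjusted p 0.00625 in edgeR). Stk4, its paralog encoding MST1, had a log2 fold change of 0.29 and an adjusted p of 0.0915 in edgeR. With 1 library left out, its adjusted p ran from 0.0461 (without wild-type replicate 2) to 0.309 (without wild-type replicate 1). Sirt1, a deacetylase, had a log2 fold change of -0.49 and an adjusted p of 0.0633 in edgeR. With 1 library left out, its adjusted p ran from 0.037 (without wild-type replicate 3) to 0.207 (without wild-type replicate 1). Usp7, also on this list, had a log2 fold change of -0.36 and an adjusted p of 0.0565 in edgeR. With 1 library left out, its adjusted p ran from 0.0884 to 0.168. DESeq2 called Usp7, Sirt1 and Stk4 (adjusted p 0.00443, 0.0184 and 0.0199). Of the 19 tested genes, 13 had positive and 6 negative log2 fold changes. Stk4, Sirt1 and Usp7 were named after their values were seen.

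**Figure D4:**
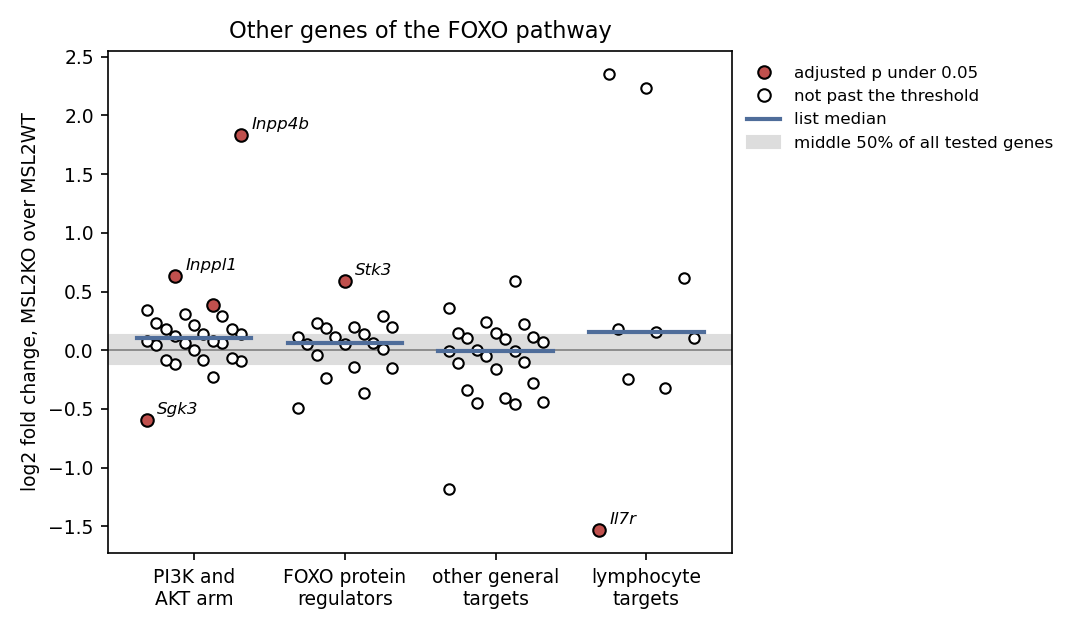
Log2 fold change, MSL2KO over MSL2WT, of each tested gene in 4 lists around FOXO (points), with list medians in blue and the middle 50% of all tested genes in grey. The 6 filled points passed an adjusted p of 0.05: the named ones are Inpp4b, Inppl1 and Sgk3 in the PI3K and AKT list, Stk3 among regulators, and Il7r among lymphocyte targets.

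Of 30 other general FOXO targets, 24 were tested and 0 were called by edgeR, while 5 had an unadjusted p under 0.05. Among all tested genes these shares were 4.59% and 15.4%. DESeq2 called Ccnd2 and Cdkn1b, and limma-voom called 0. The median log2 fold change over the list was -0.007. The 5 genes, named after their values were seen, had log2 fold changes of both signs. Cdkn1b, which encodes the cell cycle inhibitor p27, averaged 74.6 ± 10 CPM in the knockout and 58 ± 5 CPM in the wild type (adjusted p 0.101 in edgeR). Ccnd2, a cyclin of G1 that FOXO proteins repress, averaged 154 ± 21 CPM in the knockout and 210 ± 37 CPM in the wild type (adjusted p 0.095 in edgeR). In both genes the groups did not overlap, nor did they in Gadd45b and Fbxo32, while in Insr they overlapped. Of the 24 tested genes, the knockout lay above every wild-type library in 1 and below in 5. Among all tested genes, 20.9% did not overlap, 9.68% above and 11.2% below. Gadd45b, a stress response gene, averaged 20.2 ± 3.7 CPM in the knockout and 26.8 ± 1.7 CPM in the wild type (adjusted p 0.133 in edgeR). With 1 library left out, its adjusted p ran from 0.0233 (without knockout replicate 1) to 0.405 (without knockout replicate 2). The insulin receptor gene Insr and the ubiquitin ligase gene Fbxo32 had log2 fold changes of -0.28 and -1.19 (adjusted p 0.252 and 0.0907 in edgeR). Fbxo32 was low in both groups, at 0.449 ± 0.061 CPM in the knockout and 1.04 ± 0.041 CPM in the wild type. The death gene Bcl2l11 (BIM), named for its role, averaged 36.8 ± 3.5 CPM in the knockout and 36.9 ± 6.6 CPM in the wild type. Pdk4, G6pc, Pck1 and Igfbp1, FOXO targets of liver and muscle metabolism, had 0 reads in all 6 libraries, which allows up to 0.0302 CPM over the 6 (3 counts, for counting error only).

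Of 11 targets known from lymphocytes, 9 were tested. Of these, 1 was called lower and 0 higher, beside 2.79% lower and 1.8% higher among all tested genes. Il7r, the interleukin 7 receptor chain, was at 24.7, 40.7 and 18.9 CPM in the knockout, against 76.1, 96.3 and 73.6 CPM in the wild type. The groups were well apart, with a log2 fold change of -1.53 ± 0.23 (adjusted p 0.00392 in edgeR), while Foxo1 had a log2 fold change of the opposite sign. Without any 1 library the Il7r value ran from -1.90 to -1.32. The recombinase gene Rag1 had 29, 17 and 9 reads in the knockout replicates and 0, 34 and 0 reads in the wild-type replicates. Its partner Rag2 had 54, 44 and 37 reads in the knockout and 0, 27 and 0 reads in the wild type. Over all 6 libraries the log2 fold change was 0.618 ± 0.998 for Rag1 and 2.23 ± 0.85 for Rag2 (adjusted p 0.868 and 0.223 in edgeR). For both genes wild-type replicate 2 held every wild-type read. In that library Rag1, at 1.92 CPM, lay above every knockout library (1.8, 0.798 and 0.594 CPM). Rag2, at 1.52 CPM there, lay below every knockout library (3.36, 2.07 and 2.44 CPM). With that library left out no wild-type reads remain. Over a floor of 3 counts in both other wild-type libraries, the knockout mean was then 10.4-fold for Rag1 and 25.5-fold for Rag2. These ratios carry no p and follow from the choice of library, since leaving it out sets the wild type to 0. They also leave out the counting error of the knockout reads, and do not describe all 3 wild-type libraries. Wild-type replicate 2 was also the highest wild-type library for Foxo1, and the part of this in the Rag values was not tested.

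The chemokine receptor gene Ccr7 averaged 21.1 ± 3.8 CPM in the knockout and 26.3 ± 4.6 CPM in the wild type. Syk, a kinase of the pre-B cell receptor, averaged 213 ± 17 CPM in the knockout and 198 ± 24 CPM in the wild type. The Ikaros gene Ikzf1 averaged 211 ± 10 CPM in the knockout and 190 ± 5.2 CPM in the wild type. Its relative Ikzf3 averaged 36.8 ± 4 CPM in the knockout and 43.5 ± 7.5 CPM in the wild type. Their adjusted p ran from 0.33 for Ikzf1 to 0.737 for Syk, and that of Blnk was 0.563. S1pr1, a receptor for sphingosine phosphate, was too low to test.

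The genes most like each member were sought by Pearson r of log2 CPM over the 6 libraries, among 8561 named genes that averaged 3 or more in log2 CPM. With 6 points that share 2 lines, high r is common, and between 9 and 74 genes exceeded 0.95 for each member, so these are descriptions. Foxo1 was closest to 2810013P06Rik (0.998) and Spin1 (0.994), which did not pass the test between groups. Foxo3 was closest to Tpcn2 (0.994) and Mynn (0.988). Foxo4 was closest to 2210016L21Rik (0.989) and Slc43a1 (0.987), an amino acid transporter that itself fell (log2 fold change -0.68, adjusted p 0.00657 in edgeR). Cited2 was closest to Mtpap (0.995), the mitochondrial poly(A) polymerase, and Pou2af1 (0.990), a B cell coactivator. The log2 fold change of Pou2af1 was -0.30 (adjusted p 0.0745 in edgeR). Klf2 was closest to Chd2 (0.995) and Rlf (0.993), and Pik3ip1 to Rhoh (0.991) and Synrg (0.989). Irs2 was closest to Cflar (0.989) and Cbx5 (0.982), and Sesn3 to Gimap8 (0.995) and Myo9a (0.993). Ccng2 was closest to 2700099C18Rik (0.991) and Tbc1d31 (0.990). No member was among the closest pair of another.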

How the data were processed

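The deposited files hold raw counts per gene for 6 RNA libraries, per the file headers, as unnormalised whole numbers. Per the labels' protocols, the authors depleted ribosomal RNA from total RNA. The submitters' processing notes list the build mm10, featureCounts 2.0.0, STAR 2.5.3a and limma without saying how each was used. The annotation release, strand setting and handling of multiply mapping reads are not stated by these sources, so reads of overlapping genes can be shared. Chromatin immunoprecipitation and input values (9 samples) were not used here.

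Of 55335 identifiers, 54587 had a symbol in the gene name table. Gene spans came from RefSeq (GRCm38.p6, which is mm10) by symbol. Groups and replicate numbers came from the titles. Genes were kept by filterByExpr (13077), scaled by TMM and tested with edgeR 4.0.16 (quasi-likelihood, no covariate) in R 4.3.3, with Benjamini-Hochberg adjustment over all tested genes. The SE comes from the fold change and the F statistic, and 95% intervals from the same test. The biological coefficient of variation was 0.109. CPM are on TMM-scaled sizes, as mean ± SD over 3 libraries. Replicates differed by more than sampling noise in every pair, with a chi-square per degree of freedom between 7.29 and 19.8. Floors (3 counts, or 0.141 to 0.212 CPM in 1 library) cover counting error only, while the 95% intervals also include variation among the libraries.

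The members and lists were chosen with earlier results of these data known. The genes named are the 9 members, Msl2, Blnk, called genes of each list (up to 4 per direction), Foxo6, the tested lymphocyte targets and the 2 genes most like each member. Others are said to be named otherwise, and values of some listed genes are not reported here. The procedure was tested on counts simulated for this comparison (12803 genes tested). It recovered 48.5% of 66 genes changed 1.5-fold, 75.4% of 65 changed 2-fold and 100% of 63 changed 4-fold, and called 18 of 12609 unchanged genes. Alternatives were RLE scaling, library totals, no low-count filter, a log2 CPM minimum of 2, DESeq2 1.42.0, limma-voom (limma 3.58.1), replicate numbers as blocks, and fits lacking 1 library or both libraries numbered 2.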

Additional observations from a re-analysis of the deposited data

How the results depend on the processing

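Over all tested genes 235 were called higher and 365 lower in the knockout. Among the 9 FOXO genes these counts were 0 and 1, and among the 4 pathway lists 4 and 2. Without the low-count filter (26696 genes tested) the counts were 482 and 721 over all genes, 2 (Foxo1 and Sesn3) and 2 (Cited2 and Pik3ip1) among the FOXO genes, and 11 and 6 in the lists. With a log2 CPM minimum of 2 (mean over libraries), 195 genes were lower. DESeq2 called 1 FOXO gene higher (Foxo1), and 7 and 5 genes in the lists. With both libraries numbered 2 left out, 224 genes were lower over all, 1 FOXO gene was higher (Foxo1) and 0 were lower. With 1 library left out, 138 to 227 genes were higher and 242 to 316 lower, 0 to 1 FOXO genes higher and 1 to 2 lower, and 3 to 6 list genes higher. Libraries of the same number did not deviate together in all 3 pairs (correlations of deviations 0.029, 0.212 and 0.403 for numbers 1, 2 and 3), so they were not treated as paired, and knockout replicate 2 correlated more with wild-type replicate 1 (0.272). With the replicate block the counts were 381 higher and 565 lower, 1 FOXO gene higher (Foxo1) and 2 lower (Cited2 and Pik3ip1), and 8 and 4 list genes. The Foxo3 value, -0.008 in the reported fit, was 0.009 with library totals and 0.053 without both libraries numbered 2, and ran from -0.078 to 0.065 with 1 library left out. That of Irs2, -0.003, was 0.002 with RLE scaling and in DESeq2, 0.016 with library totals and 0.006 with the stricter filter, and ran from -0.035 to 0.033 with 1 library left out. That of Ccng2 ran from -0.067 to 0.38 with 1 library left out. The cause of these changes was not tested. Cited2 kept its direction in all 14 alternatives and its call in 13. Klf2, with 26 to 105 reads per library, had an interval too wide to show a change of the size of Cited2's.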
